A study of Mus musculus with 36 samples.

Results

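The 10 genes described here act in fatty acid synthesis and desaturation and were measured in the brains of mice with and without Gpt2. The genes are Fasn, Acaca, Acly, Acss2, Scd1, Scd2, Fads1, Fads2, Elovl6 and Srebf1. They were taken by symbol from the deposited tables, and 10 of 10 were found among 56184 genes and passed the filter on low counts that left 16255 genes. Polyadenylated RNA from 10 mg of brain was sequenced in 36 libraries from mice at postnatal day 19. The groups were Gpt2 wild type with vehicle (WT-Veh, 10 libraries), wild type with dm-αKG (WT-aKG, 8 libraries), Gpt2 knockout with vehicle (KO-Veh, 10 libraries) and knockout with dm-αKG (KO-aKG, 8 libraries). The agent dm-αKG is dimethyl α-ketoglutarate, an ester that enters cells, and it was injected intraperitoneally at 600 mg/kg. Gpt2 is the mitochondrial alanine transaminase, which exchanges an amino group between alanine and α-ketoglutarate. The sources used here do not give the strain, the sex, the deleted part of the gene, the cell types that lost it or the brain region of each piece. The submitters call the libraries of a group biological replicates, and no label ties a library to 1 animal, so the p-values reflect how these samples vary, which may be partly technical.

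Cells build fatty acids in the cytosol from acetyl-CoA. ATP citrate lyase (Acly) makes acetyl-CoA from citrate and acetyl-CoA synthetase (Acss2) makes it from acetate, acetyl-CoA carboxylase (Acaca) turns it into malonyl-CoA, and fatty acid synthase (Fasn) joins these units into palmitate. Elovl6 lengthens palmitate, the stearoyl-CoA desaturases Scd1 and Scd2 place the first double bond, and Fads1 and Fads2 desaturate polyunsaturated fatty acids. SREBP transcription factors, encoded by Srebf1 and Srebf2, drive many of these genes when they are released by Scap and not held back by Insig proteins, and liver X receptors (Nr1h2 and Nr1h3) act on Srebf1. In the developing brain, oligodendrocytes use this pathway to build myelin, and astrocytes also make and export lipid.

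The deposited data are counts, so the regulatory sequence in front of 2 of the genes is shown only to place them. Fasn carried the lowest adjusted p of the 10 genes, and Srebf1, which encodes the factor known to drive it, did not pass the test in any comparison. The RefSeq promoter table (GRCm38.p6) held an entry for 7 of the 10 genes. It held none for Scd1, Scd2 and Fads1. The 250 bases before the start of Fasn (chr11:120824548-120824797, minus strand) and before the innermost of 3 starts of Srebf1 (chr11:60210472-60210721, minus strand) are printed 5′ to 3′, with CCAAT boxes on either strand in capitals.
Fasn: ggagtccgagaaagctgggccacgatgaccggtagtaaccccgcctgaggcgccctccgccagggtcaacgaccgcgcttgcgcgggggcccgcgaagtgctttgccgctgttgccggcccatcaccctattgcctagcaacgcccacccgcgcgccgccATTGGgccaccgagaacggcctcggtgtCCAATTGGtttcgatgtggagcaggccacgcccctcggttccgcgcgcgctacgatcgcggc
Srebf1: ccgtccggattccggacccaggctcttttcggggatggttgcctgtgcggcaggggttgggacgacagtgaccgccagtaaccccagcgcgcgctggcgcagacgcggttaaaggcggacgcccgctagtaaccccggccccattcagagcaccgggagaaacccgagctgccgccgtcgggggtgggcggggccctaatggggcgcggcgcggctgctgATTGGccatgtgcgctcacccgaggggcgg
Fasn held 3 CCAAT boxes, 90, 62 and 59 bases before the start, and the latter pair overlap as 1 run of capitals. Srebf1 held 1 in the window shown, 30 bases before the start, and 1 in the window of its outermost start, 166 bases before it. CCAAT is the letters bound by the factor NF-Y, and it stood in 33.8% of 32536 promoter windows of this length. The sterol regulatory element consensus TCACNCCAC, searched on both strands, stood in 1.04% of windows and in none of the members' windows. The E-box CACGTG stood in 6.04% of windows and in none of the members' windows. Acss2 held 1 CCAAT box, 73 bases before its start, and the windows of Acaca, Acly, Fads2 and Elovl6 held none. The Acaca window (chr11:84195188-84195437, plus strand) lies inside the gene, which starts at 84129672. It therefore says nothing of the sequence before that outer start. These matches are letters in a window and no binding was measured.

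Libraries held 5.77 to 13.3 M counts (median 11.4 M), and the 10 genes together held 8800 to 30917 counts in a library. The lowest count of any of them in any library was 95. Gpt2 itself lay between 22.0 and 39.0 CPM (counts scaled to a common library total, here with TMM factors) in the 18 wild type libraries and between 0.881 and 3.30 CPM in the 18 knockout libraries, so every library stood on the side its label gives. Markers of brain regions differed within groups. A high cerebellum marker score (the mean log2 CPM of 13 genes, over 1 log2 unit above the overall mean) was seen in 3 WT-Veh and 4 WT-aKG libraries but in 1 KO-Veh and 1 KO-aKG library. Xist exceeded the Y-linked Ddx3y in 4 of the 20 vehicle libraries and 9 of the 16 dm-αKG libraries. In such bulk tissue, fewer cells of a type and less RNA per cell cannot be told apart.

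The genotypes were compared under vehicle first, which asks what the loss of Gpt2 goes with. Fasn, Acss2 and Scd1 fell in knockouts, by 29.6%, 27.4% and 40.4% in the fitted fold change, and none of the 10 genes rose. All 10 log2 fold changes lay below 0, between -0.75 and -0.23, with a median of -0.45. Over all 16255 genes the median was -0.02 and 53.3% lay below 0. The 3 calls of 10 stand beside a background of 4.31% of all genes called (701 genes), which is 1.72% called lower and 2.6% called higher. A call is an edgeR quasi-likelihood p below 0.05 after Benjamini-Hochberg adjustment over all 16255 genes.

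**Figure D1:**
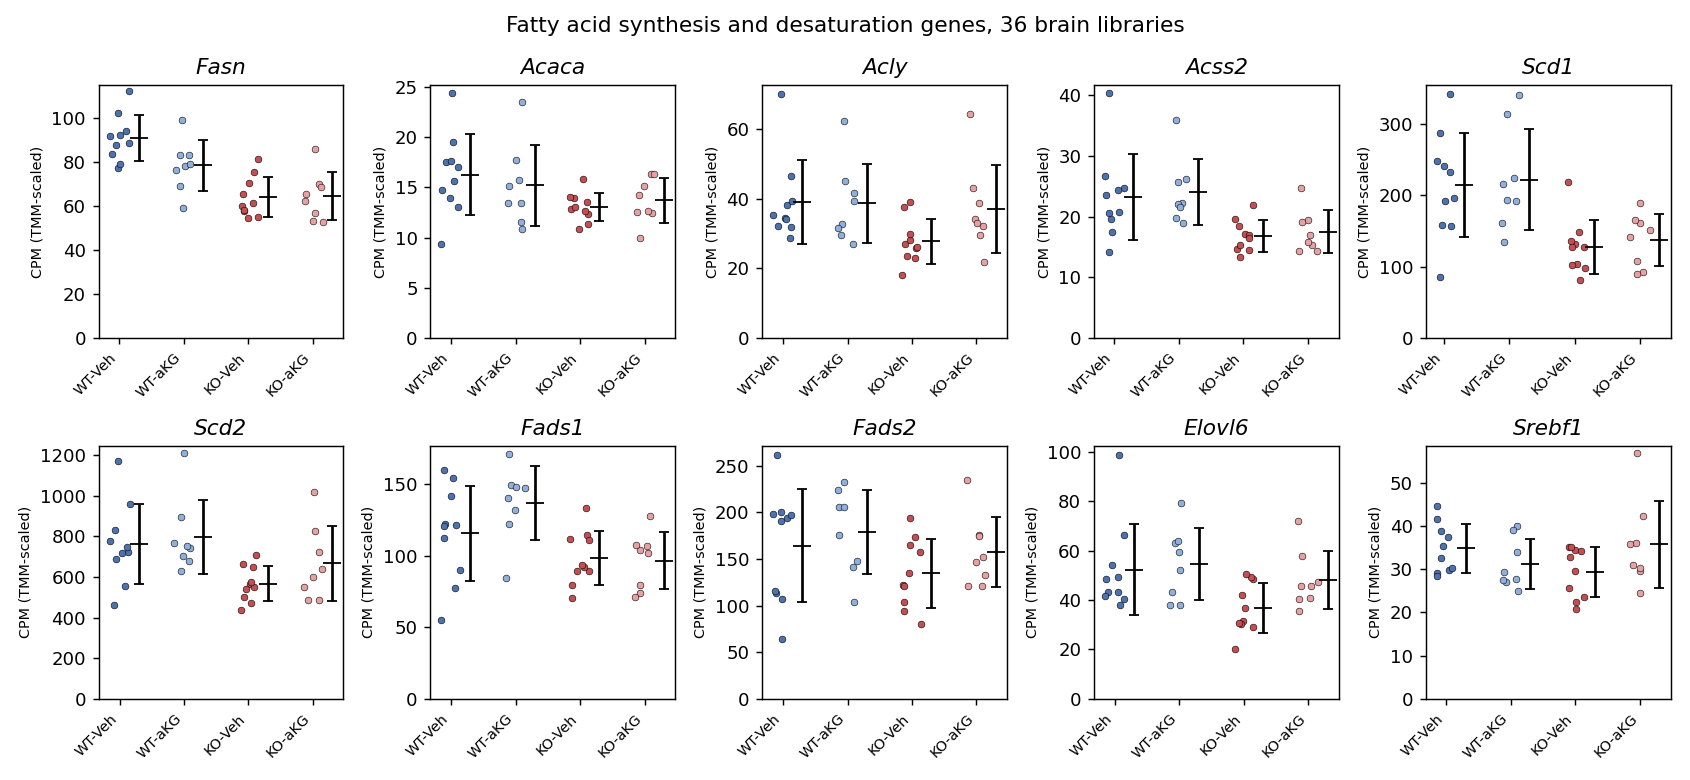
Level of each of the 10 genes in every library (TMM-scaled CPM, linear axis from 0), by group; points are libraries, and the bar beside them is the mean with its SD (n = 10, 8, 10 and 8). Fasn of KO-Veh sits below all WT-Veh libraries in 9 of 10 libraries, and the ranges of all 10 genes overlap between the genotypes.

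The genes that supply acetyl-CoA come first. Acss2, which uses acetate, lay between 14.2 and 40.4 CPM in WT-Veh (median 22.2) and between 13.3 and 22.0 CPM in KO-Veh (median 16.8). All 10 KO-Veh libraries lay below the WT-Veh median and 1 lay below the lowest WT-Veh library. Its log2 fold change was -0.46 (SE 0.14, edgeR adjusted p = 0.0476). That call was lost in 26 of the 36 fits that left out 1 library each, with every fold change still below 0. Reads of Acss2 may also be shared with Ggt7 and Gss, which overlap it on the opposite strand, since the sources used here do not say whether counting used strand. Acly, which uses citrate, lay between 28.7 and 70.1 CPM in WT-Veh (median 34.9) and between 18.1 and 39.2 CPM in KO-Veh (median 26.6). Here 7 of 10 KO-Veh libraries lay below the lowest WT-Veh library, and the highest WT-Veh library, WT-Veh-2 at 70.1 CPM, stood apart from the next at 46.7 CPM. The log2 fold change of Acly was -0.49 (SE 0.17) and it did not pass the test (edgeR adjusted p = 0.0957).

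The committed steps follow. Fasn, the synthase, lay between 77.5 and 112 CPM in WT-Veh (median 90.3) and between 54.8 and 81.4 CPM in KO-Veh (median 60.8). Only KO-Veh-6 reached into the WT-Veh range, and 9 of 10 KO-Veh libraries lay below it. The mean fell from 91.1 ± 10.5 CPM (SD, n = 10) to 64.1 ± 9.05 CPM (SD, n = 10), a log2 fold change of -0.51 (SE 0.09, edgeR adjusted p = 0.000814). Fasn stayed called in 36 of 36 fits that left out 1 library (adjusted p up to 0.00268). Without TMM scaling, on library totals alone, its log2 fold change was -0.49 and its adjusted p was 0.0546. Acaca, the carboxylase before it, lay between 9.35 and 24.4 CPM in WT-Veh (median 16.3) and between 10.9 and 15.8 CPM in KO-Veh (median 12.95). Every KO-Veh library lay below the WT-Veh median, within the WT-Veh range. The log2 fold change of Acaca was -0.32 (SE 0.13, edgeR adjusted p = 0.156). Of its 50-base stretches 30.4% also occur in other annotated genes, so its counts are uncertain.

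The elongase and the stearoyl-CoA desaturases varied more between libraries than Fasn did: in WT-Veh the SD was 34.8% of the mean for Elovl6, 34.1% for Scd1 and 25.9% for Scd2, beside 11.5% for Fasn. Elovl6 lay between 37.9 and 98.7 CPM in WT-Veh (median 46.0) and between 20.3 and 50.4 CPM in KO-Veh (median 34.0). For Elovl6, 6 of 10 KO-Veh libraries lay below the lowest WT-Veh library, and its log2 fold change of -0.51 (SE 0.17) missed the threshold (edgeR adjusted p = 0.0887). Scd1 lay between 85.1 and 341 CPM in WT-Veh (median 214) and between 81.9 and 219 CPM in KO-Veh (median 127). In KO-Veh 9 of 10 libraries lay below the WT-Veh median. KO-Veh-7 at 219 CPM stood apart from the next library at 148 CPM. The mean of Scd1 fell from 214 ± 72.8 CPM to 127 ± 38.0 CPM (SD, n = 10 each), a log2 fold change of -0.75 (SE 0.20, edgeR adjusted p = 0.0237). Without WT-Veh-2 it was -0.64 and without KO-Veh-10 it was -0.71, and neither passed the test. Scd2, the form known to be abundant in brain, lay between 461 and 1168 CPM in WT-Veh (median 737) and between 439 and 709 CPM in KO-Veh (median 558). All 10 KO-Veh libraries lay below the WT-Veh median, and the log2 fold change was -0.43 (SE 0.14, edgeR adjusted p = 0.078). Scd1 and Scd2 share 4.56% and 3.97% of their 50-base stretches with other genes, mainly each other and the Scd paralogs, and lie 87.6 kb apart on chromosome 19.

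The desaturases of the polyunsaturated branch did not pass the test. Fads1 lay between 54.9 and 160 CPM in WT-Veh (median 121) and between 70.5 and 133 CPM in KO-Veh (median 93.0). Fads2 lay between 64.1 and 262 CPM in WT-Veh (median 192) and between 80.5 and 194 CPM in KO-Veh (median 129). The WT-Veh range contained the KO-Veh range for both genes, and 9 of 10 KO-Veh libraries lay below the WT-Veh median for each. Their log2 fold changes were -0.23 (SE 0.15, edgeR adjusted p = 0.387) for Fads1 and -0.28 (SE 0.19, adjusted p = 0.404) for Fads2. With 5 tissue scores as covariates, described with the markers, Fads2 was at -0.46 and was called (adjusted p = 0.0489). Srebf1, the transcription factor gene, lay between 28.4 and 44.8 CPM in WT-Veh (median 34.1) and between 20.8 and 35.2 CPM in KO-Veh (median 31.2). For Srebf1 4 of 10 KO-Veh libraries lay below the lowest WT-Veh library and 6 of 10 below the WT-Veh median, and the log2 fold change was -0.25 (SE 0.13, edgeR adjusted p = 0.269). Srebf1 overlaps Rai1 on the opposite strand (mean counts 359 and 255), so reads of this pair may be mixed.

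The same comparison under dm-αKG called none of the 10 genes, beside a background of 1.87% of all genes (304 genes, 0.751% lower and 1.12% higher). At an unadjusted p under 0.05 there were 4 genes, Fasn, Acss2, Scd1 and Fads1, each with a fold change below 0, and DESeq2 also called 0. Of the 10 log2 fold changes 9 lay below 0 on the TMM scale, 8 on library totals, where Acly turned, and 7 in the deposited CPM table, where Acly and Acaca turned. The median was -0.22, beside -0.02 over all genes. On library totals the median over all genes was 0.16 higher in this comparison than with TMM.

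Scd1 lay between 134 and 340 CPM in WT-aKG (median 204) and between 89.5 and 189 CPM in KO-aKG (median 146). All 8 KO-aKG libraries lay below the WT-aKG median and 3 below its lowest library, and the log2 fold change was -0.69 (SE 0.22, edgeR adjusted p = 0.0959). Without the libraries high in cerebellum markers it was -0.39 (adjusted p = 0.367). Acss2 lay between 18.9 and 35.99 CPM in WT-aKG (median 22.2) and between 14.3 and 24.7 CPM in KO-aKG (median 16.4). For Acss2 5 of 8 KO-aKG libraries lay below the lowest WT-aKG library (log2 fold change -0.46, SE 0.15, edgeR adjusted p = 0.122). Fads1 lay between 84.4 and 171 CPM in WT-aKG (median 144) and between 71.2 and 128 CPM in KO-aKG (median 103). All 8 KO-aKG libraries lay below the WT-aKG median, and the log2 fold change was -0.50 (SE 0.17, edgeR adjusted p = 0.119). Fasn lay between 59.1 and 99.4 CPM in WT-aKG (median 78.8) and between 53.0 and 86.1 CPM in KO-aKG (median 63.8). There 7 of 8 KO-aKG libraries lay below the WT-aKG median (log2 fold change -0.29, SE 0.10, edgeR adjusted p = 0.162). On library totals alone the value of Fasn was -0.11 (adjusted p = 0.761) and that of Acss2 -0.295 (adjusted p = 0.491).

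For the remaining 6 genes the log2 fold changes under dm-αKG lay between -0.26 and 0.20. Scd2 had a median of 748 CPM in WT-aKG (628 to 1207) and 619 CPM in KO-aKG (488 to 1020). Fads2 had a median of 190 CPM in WT-aKG (104 to 232) and 150 CPM in KO-aKG (121 to 235). Elovl6 had a median of 55.9 CPM in WT-aKG (37.8 to 79.3) and 45.8 CPM in KO-aKG (35.5 to 72.1). For Scd2 4 of 8 KO-aKG libraries lay below the lowest WT-aKG library and 6 of 8 below its median. For Elovl6 1 of 8 and for Fads2 0 of 8 lay below the lowest WT-aKG library. Acly had a median of 36.01 CPM in WT-aKG (27.1 to 62.4) and 33.8 CPM in KO-aKG (21.8 to 64.4). Acaca had a median of 14.3 CPM in WT-aKG (10.9 to 23.5) and 13.4 CPM in KO-aKG (9.93 to 16.4). Srebf1 was the one gene with a value above 0: its median was 28.5 CPM in WT-aKG (24.9 to 40.05) and 33.4 CPM in KO-aKG (24.4 to 56.8), a log2 fold change of 0.20 (SE 0.14, edgeR adjusted p = 0.54).

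The average of the genotype effects under both treatments uses all 36 libraries and shares them with the separate comparisons. Fasn, Acss2, Scd1, Scd2 and Fads1 fell in it, which is 5 of 10 genes beside a background of 11.9% of all genes called, 6.17% lower and 5.7% higher. All 10 values lay below 0, beside 53.9% of all genes. Scd1 had a log2 fold change of -0.72 (SE 0.15, edgeR adjusted p = 0.00132). Acss2 had -0.46 (SE 0.10, adjusted p = 0.00334) and Fasn -0.40 (SE 0.07, adjusted p = 0.000224). Fads1 had -0.37 (SE 0.11, adjusted p = 0.0304) and Scd2 -0.34 (SE 0.11, adjusted p = 0.0326). The calls of Scd2 and Fads1 were close to the threshold. Scd2 was not called without any 1 of 6 libraries (WT-Veh-2, WT-aKG-7, WT-aKG-8, KO-aKG-1, KO-aKG-2 or KO-aKG-3). Fads1 was not called without any 1 of 4 libraries (WT-Veh-7, KO-aKG-1, KO-aKG-2 or KO-aKG-8). On library totals alone 1 of the 5 genes, Scd1, stayed called. Of all genes 155 were called lower on that scale and 1274 higher, in place of 1003 lower and 927 higher with TMM. Among the members not called with TMM, Elovl6 (-0.34, edgeR adjusted p = 0.0778), Acly (-0.27, adjusted p = 0.156), Fads2 (-0.24, adjusted p = 0.29) and Acaca (-0.23, adjusted p = 0.111) had values below 0. Srebf1 was at -0.02 (SE 0.10, edgeR adjusted p = 0.903), and its sign turned on library totals (0.08) and in the deposited CPM table (0.04).

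**Figure D2:**
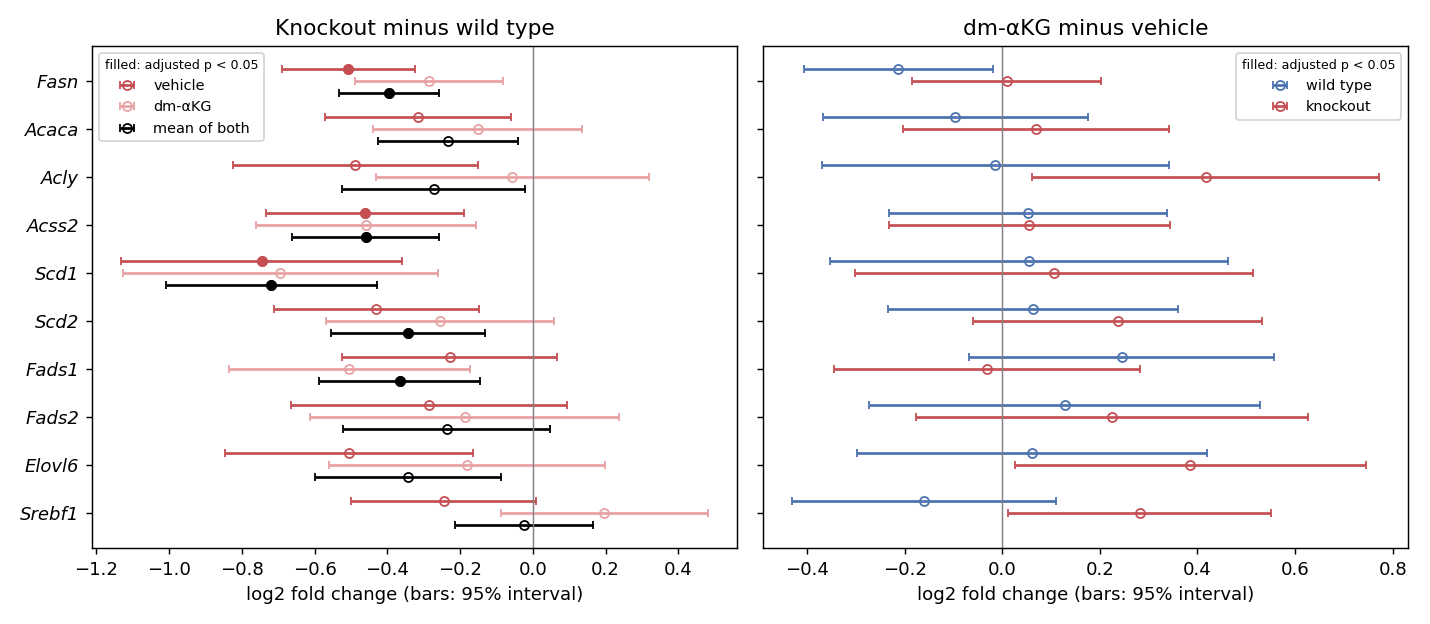
Log2 fold change of each gene with its 95% interval, knockout minus wild type on the left and dm-αKG minus vehicle on the right; filled points have an edgeR adjusted p below 0.05. On the left 3 genes under vehicle and 5 genes in the average are filled, under dm-αKG and on the right none.

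The treatment was compared within each genotype, which asks what dm-αKG goes with. In wild types 0 of the 10 genes were called, beside 0% of all genes, and in knockouts likewise 0 beside 0%; DESeq2 called 72 genes in wild types, none of them among the 10, and 0 in knockouts. In wild types 1 of the 10 had an unadjusted p under 0.05, which was Fasn with a log2 fold change of -0.21 (SE 0.10, p = 0.0381, edgeR adjusted p = 0.548). Fads1 had the highest value in wild types, 0.24 (SE 0.16), and the median over the 10 genes was 0.05. In knockouts 9 of the 10 values lay above 0, with a median of 0.17 beside -0.01 over all genes, of which 51.6% lay below 0. Acly (0.42, SE 0.18, edgeR adjusted p = 0.349), Elovl6 (0.38, SE 0.18, adjusted p = 0.393) and Srebf1 (0.28, SE 0.14, adjusted p = 0.404) were the 3 with an unadjusted p under 0.05. Oligodendrocyte and myelin markers lay higher in the same comparison in 20 of 20 (median 0.85, 0 called), and with their score as a covariate Acly stood at 0.038, Elovl6 at 0.039 and Srebf1 at 0.18. With 5 tissue scores (cerebellum, cortex, striatum, choroid plexus and myelin) Acly was at -0.0024, Elovl6 at 0.039 and Srebf1 at 0.09. Acly was at 0.26 without KO-aKG-8, and Srebf1 at 0.16 without KO-aKG-5. For Srebf1 4 of 8 KO-aKG libraries lay above the highest KO-Veh library. Fasn was at 0.01 in knockouts (95% interval -0.19 to 0.20) and Acss2 at 0.06 (-0.23 to 0.34). Intervals of that width leave room for a change of either sign. The treatment comparison in knockouts shares the KO-Veh libraries with the vehicle comparison above, so the opposite signs of these comparisons are not separate evidence.

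Whether the genotype effect differed between treatments was tested by an interaction term. It called 0 of the 10 genes beside 0% of all genes, and DESeq2 called 0. The difference lay above 0 for 9 of the 10, and below 0 for 51.4% of all genes. Srebf1 was the 1 gene with an unadjusted p under 0.05, with a difference of 0.44 (SE 0.19, p = 0.0291, edgeR adjusted p = 0.961). Acly (0.43, SE 0.26) and Elovl6 (0.32, SE 0.26) followed in size, and Acss2 was at 0.003 (95% interval -0.40 to 0.41). The difference lay above 0 for 20 of 20 oligodendrocyte and myelin markers (median 0.67, 0 called). With their score as a covariate Acly was at 0.14, Elovl6 at 0.037 and Srebf1 at 0.36, and with 5 tissue scores Acly was at 0.097, Elovl6 at 0.037 and Srebf1 at 0.28. Without KO-aKG-8 Acly was at 0.27, and without WT-Veh-2 Elovl6 was at 0.18. Without the libraries high in cerebellum markers Acly was at 0.75 and Elovl6 at 0.70.

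The other enzymes of the pathway were read from a list of 35 genes, of which 32 could be tested. Under vehicle 2 rose, Mcat and Cbr4, and 0 fell, beside 4.31% of all genes called, with a median of -0.06 over the list. Under dm-αKG 1 rose, Oxsm, and 1 fell, Hacd1, beside 1.87% of all genes. In the average of both, Mcat, Oxsm and Cbr4 rose and Me1 and Hacd1 fell, 5 of 32 beside 11.9% of all genes called. The share in the average is near the background, so the genes are given one by one and not as a change of the list. Mcat, Oxsm and Cbr4 encode enzymes of the separate mitochondrial fatty acid synthesis, which serves lipoic acid formation. Their fold changes had the opposite sign to that of the cytosolic Fasn.

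Cbr4, part of the mitochondrial ketoacyl reductase, lay between 3.69 and 6.90 CPM in WT-Veh (median 4.71) and between 5.52 and 7.58 CPM in KO-Veh (median 7.001). Its log2 fold change was 0.48 (SE 0.10, edgeR adjusted p = 0.00335) under vehicle and 0.40 (SE 0.08, adjusted p = 0.000479) in the average. It stayed called under 13 of 13 other settings with vehicle and 12 of 12 in the average, and in 36 of 36 fits without 1 library each. Cbr4 lies on chromosome 8, 24.0 Mb from Gpt2, and whether sequence linked to the Gpt2 allele moves with it was not tested. Mcat, the mitochondrial malonyl transferase, lay between 4.84 and 9.87 CPM in WT-Veh (median 6.92) and between 7.84 and 11.1 CPM in KO-Veh (median 9.58). Its log2 fold change was 0.38 (SE 0.11, edgeR adjusted p = 0.0448) under vehicle, a call lost in 16 of 36 fits without 1 library, and 0.30 (SE 0.08, adjusted p = 0.016) in the average. Oxsm, the mitochondrial ketoacyl synthase, lay between 2.25 and 4.52 CPM in WT-aKG (median 3.24) and between 3.50 and 5.76 CPM in KO-aKG (median 5.21). Its log2 fold change was 0.61 (SE 0.14, edgeR adjusted p = 0.0132) under dm-αKG and 0.48 (SE 0.09, adjusted p = 0.000724) in the average. Mcat overlaps Tspo and Oxsm overlaps Ngly1 on opposite strands, so reads of either pair may be mixed. Of the same mitochondrial pathway, Mecr (-0.16, edgeR adjusted p = 0.203) and Hsd17b8 (-0.31, adjusted p = 0.135) did not pass in the average and lay below 0.

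Among cytosolic and elongation genes of the list, Me1, the malic enzyme that supplies NADPH, had a log2 fold change of -0.29 (SE 0.08, edgeR adjusted p = 0.0225) in the average. Hacd1, a dehydratase of fatty acid elongation, lay between 22.5 and 27.8 CPM in WT-aKG (median 25.6) and between 18.4 and 21.0 CPM in KO-aKG (median 19.2). The 2 ranges did not overlap, and the log2 fold change was -0.39 (SE 0.08, edgeR adjusted p = 0.00732) under dm-αKG. How many of all genes had separate ranges was not counted. Under vehicle the Hacd1 ranges overlapped, with 17.1 to 23.0 CPM in WT-Veh (median 20.3) and 14.3 to 23.8 CPM in KO-Veh (median 18.3). WT-aKG thus had the highest median of the 4 groups. On library totals alone neither the Me1 nor the Hacd1 calls remained. Elovl5, which lengthens polyunsaturated fatty acids, was at -0.21 (SE 0.13, adjusted p = 0.356) under vehicle and 0.05 (SE 0.14, adjusted p = 0.912) under dm-αKG.

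The regulators were read from a list of 28 genes, of which 26 could be tested. Under vehicle 3 fell and 0 rose, beside 1.72% of all genes called lower, under dm-αKG 0 were called beside 1.87%, and in the average 6 fell and 0 rose, beside 6.17% called lower. The list median under vehicle was -0.08. Srebf2, the SREBP gene most tied to sterol synthesis, lay between 20.2 and 52.3 CPM in WT-Veh (median 36.2) and between 14.1 and 35.0 CPM in KO-Veh (median 22.6). It fell by 0.70 on the log2 scale (SE 0.20, edgeR adjusted p = 0.0319) under vehicle, a call lost in 7 of 36 fits without 1 library, and by 0.63 (SE 0.15, adjusted p = 0.00471) in the average. Insig1, an SREBP target whose product retains Scap, lay between 46.9 and 98.0 CPM in WT-Veh (median 55.3) and between 25.1 and 52.2 CPM in KO-Veh (median 35.4). It fell by 0.72 (SE 0.16, edgeR adjusted p = 0.00636) under vehicle and by 0.62 (SE 0.12, adjusted p = 0.000711) in the average. Srebf1 thus stood at -0.02 in the average while Srebf2 stood at -0.63, a difference between the genes that was itself not tested. That average of Srebf1 combines values of opposite sign, -0.25 under vehicle and 0.20 under dm-αKG. Under vehicle alone Srebf1 at -0.25 stood beside the fall of 0.70 in Srebf2. Counts of Srebf1 may also hold reads of the overlapping Rai1.

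Nr1h3, a liver X receptor, lay between 1.03 and 2.71 CPM in WT-Veh (median 1.81) and between 0.456 and 1.68 CPM in KO-Veh (median 1.15). It fell by 0.60 (SE 0.17, edgeR adjusted p = 0.0366) under vehicle, a call lost in 9 of 36 fits without 1 library. Its paralog Nr1h2 was at 0.07 (SE 0.15, adjusted p = 0.829) under vehicle and -0.34 (SE 0.17, adjusted p = 0.312) under dm-αKG. Scap, the SREBP escort, was at -0.19 (SE 0.06, adjusted p = 0.0826) under vehicle and fell by 0.15 (SE 0.05, adjusted p = 0.0383) in the average. Ppargc1b, a coactivator of SREBP, had -0.68 (SE 0.17, edgeR adjusted p = 0.00875) in the average. Stk11, the kinase upstream of AMPK, had -0.25 (SE 0.09, adjusted p = 0.0495). The calls of Scap and Stk11 were lost in 18 and 27 of 36 fits without 1 library. Sterol synthesis genes, the other branch under SREBP, were below 0 in 24 of 24 under vehicle, beside 53.3% of all genes. Of these 24 genes 12 were called lower under vehicle (1.72% of all genes), 3 under dm-αKG (0.751%) and 18 in the average (6.17%).

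**Figure D3:**
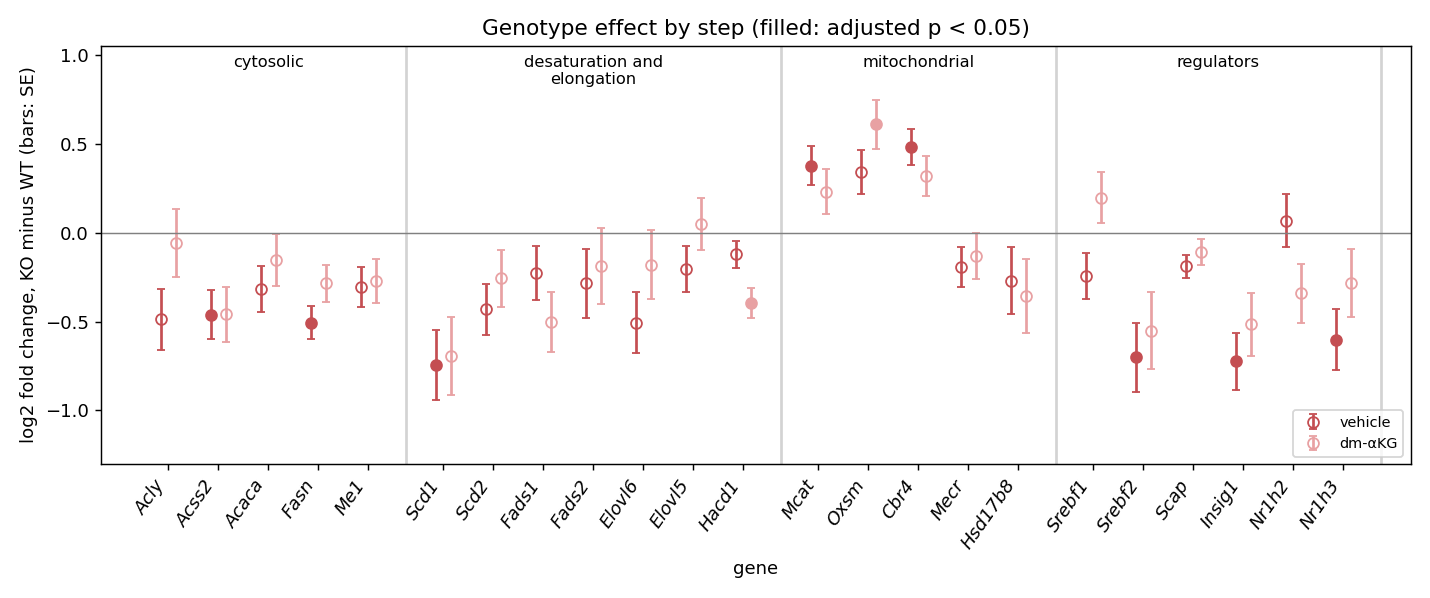
Log2 fold change (knockout minus wild type) of pathway genes by step, with SE as bars, under vehicle and under dm-αKG; filled points have an edgeR adjusted p below 0.05. Fasn, Acss2 and Scd1 are filled below 0, Mcat, Cbr4 and Oxsm are filled above 0, and Srebf1 changes side between treatments without passing the test.

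The members did not vary as 1 block within groups. After each group's mean was subtracted, 38 of 45 pairs of genes had a positive Pearson r over the 36 libraries, 13 were above 0.5 and the median was 0.405. These values describe libraries that share depth and tissue piece, and no test was made. Fads1 and Fads2, which lie 81.1 kb apart on chromosome 19, had the highest r, 0.81. Acly and Elovl6 followed with 0.77. Fads2 and Elovl6 had the lowest, -0.33, and 7 pairs were negative, each of them with Fads1 or Fads2 on one side. The genes whose pattern was most like the mean of the 10, among 10878 genes with at least 5 CPM, were Gamt (r 0.89), Gltp (0.88), Sh3gl3, Pacs2, Efcab14, Pgpep1, Kcnj10 and Rhog (0.83). For Fasn alone they were Hmgcs1 (0.72), Scfd2, Itga6, Dzank1, Rab8b, Tmeff1, Rab3gap1 and Tgfa (0.68).

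Markers of cell types and brain regions are given here beside the members. Some lists lay on the same side as the members and others did not. Of the 20 oligodendrocyte and myelin markers, 20 lay lower in KO-Veh than in WT-Veh (median log2 fold change -0.61, 0 called). In KO-aKG 12 of 20 lay above WT-aKG (median 0.12, 0 called), and 20 of 20 lay above KO-Veh. Their summed level ran from 4616 to 40640 CPM in WT-Veh, 5173 to 18498 in KO-Veh, 4619 to 36705 in WT-aKG and 8847 to 29805 in KO-aKG. None of these 20 markers was at 0 in any library. Within groups the score of these markers had r 0.87 with Acly, 0.85 with Elovl6, 0.70 with Acss2, 0.69 with Scd1, 0.51 with Scd2 and 0.28 with Fasn. With Fads1 it had -0.24 and with Fads2 -0.35. WT-Veh-2, the highest WT-Veh library for 8 of the 10 genes, and WT-aKG-8, the highest WT-aKG library for 7 of them, were also the highest of their groups in that score.

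Other lists are given in the same way. The score of 14 astrocyte markers had r 0.89 with Scd2, 0.67 with Scd1 and 0.66 with Srebf1, and 2 of 14 were called lower in KO-Veh than in WT-Veh (median -0.19). Their summed level ran from 2970 to 5727 CPM in WT-Veh and from 2810 to 5084 CPM in KO-Veh. The score of 8 microglia markers had r 0.74 with Fads2 and 0.50 with Fads1, and 5 of 8 lay lower in KO-Veh (median -0.05, 0 called). The cerebellum score had r -0.73 with Fads2, and 13 of 13 cerebellum markers lay lower in knockouts, with a median of -1.11 under vehicle and -2.13 under dm-αKG (0 called in either). Their summed level ran from 159 to 4381 CPM in WT-Veh, 64.01 to 5044 in KO-Veh, 73.98 to 4093 in WT-aKG and 62.2 to 1539 in KO-aKG. Choroid plexus markers lay lower in KO-Veh in 8 of 8 (median -1.08, 0 called), with a summed level of 31.5 to 1836 CPM in WT-Veh and 20.5 to 1003 CPM in KO-Veh. Fibroblast and meningeal markers lay lower in 6 of 6 (median -0.59, 1 called, Lum), with 79.9 to 262 CPM in WT-Veh and 76.01 to 161 CPM in KO-Veh. Markers of cerebral cortex lay higher in KO-Veh in 10 of 10 (median 0.58, 0 called) and those of striatum in 10 of 10 (median 0.78, 0 called). The part of these tissues in the members' values was not tested beyond the fits that follow. Of the 6 fat cell markers 2 could be tested, Fabp4 and Retn, and both lay higher in knockouts, with a median of 1.01 under vehicle (0 called), 0.67 under dm-αKG (0 called) and 0.84 in the average (1 called, Fabp4, edgeR adjusted p = 0.0196). The summed level of the 2 ran from 0.191 to 2.17 CPM in WT-Veh, 0.443 to 3.92 in KO-Veh, 0.353 to 2.33 in WT-aKG and 1.06 to 2.58 in KO-aKG. Of the defining fat cell genes, Lep had no count in any library, Adipoq had 16 counts in all libraries together and Cidec 8.

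**Figure D4:**
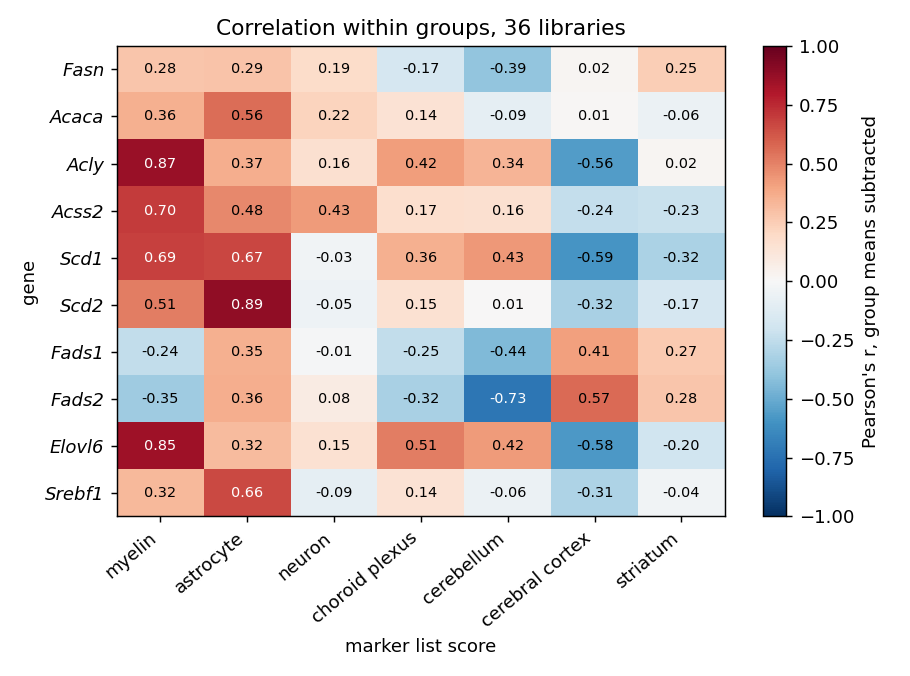
Pearson's r between each gene and each marker list score over 36 libraries with the group means subtracted (color and printed value, from -1 to 1). Acly and Elovl6 go with the myelin score (0.87 and 0.85), Scd2 with the astrocyte score (0.89), and Fads2 against the cerebellum score (-0.73). The microglia score (0.74 with Fads2) is not drawn.

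With the myelin score as a covariate, 2 of the 10 genes stayed called under vehicle, beside 3.72% of all genes: Fasn at -0.47 (SE 0.09, edgeR adjusted p = 0.00173) and Scd1 at -0.54 (SE 0.15, adjusted p = 0.0305). Acss2 was then at -0.33 (SE 0.10, adjusted p = 0.0686), Acly at -0.29 in place of -0.49 and Elovl6 at -0.29 in place of -0.51. In the average, 7 of the 10 were called lower with that covariate, beside 15.2% of all genes, with Acly (-0.22, adjusted p = 0.0221) and Elovl6 (-0.27, adjusted p = 0.00919) added. Under dm-αKG 2 genes were called with the covariate, beside 3.65% of all genes (1.87% without it), Scd1 at -0.76 (SE 0.16, adjusted p = 0.00604) and Acss2 at -0.52 (SE 0.11, adjusted p = 0.00725). With the 5 tissue scores, 6 of the 10 genes were called lower under vehicle, beside 7.97% of all genes: Fasn, Acly, Acss2, Scd1, Scd2 and Fads2. Under dm-αKG 3 were called, Fasn, Acss2 and Scd1, beside 2.55%, and in the average 8, all but Acaca and Srebf1, beside 14.4%. Those 5 scores did not include the astrocyte score (r 0.89 with Scd2, 0.67 with Scd1) or the microglia score (r 0.74 with Fads2). These fits therefore make no adjustment for those cell types. Fasn was at -0.58 under vehicle (SE 0.08, adjusted p = 5.66e-06) and -0.43 under dm-αKG (SE 0.09, adjusted p = 0.00321). Without the libraries high in cerebellum markers, which left 7 WT-Veh and 9 KO-Veh libraries, and 4 WT-aKG and 7 KO-aKG libraries, Fasn was at -0.53 under vehicle (adjusted p = 0.00158) and -0.30 under dm-αKG (adjusted p = 0.149). In that fit Scd2 was also called under vehicle (-0.55, adjusted p = 0.042), among 623 genes called (701 with all libraries). Under dm-αKG 1 member was called, Fads1 at -0.61 (adjusted p = 0.0457), among 599 genes called (304 with all libraries). In the average of that fit Fads2 was called (-0.40, adjusted p = 0.0306) and Scd2 was not (-0.33, adjusted p = 0.0821). Fasn and Scd1 were thus called under vehicle in each of these 3 fits. Over all 13 other settings Fasn kept that call in 11 and Scd1 in 8. Fasn lost it on library totals (edgeR adjusted p = 0.0546) and in the unfiltered CPM table (limma adjusted p = 0.0504). Scd1 lost it on library totals (edgeR adjusted p = 0.07) and in a fit of the 2 groups alone (edgeR adjusted p = 0.0557). It was also lost in the CPM table, with either pseudocount (limma adjusted p = 0.103) and unfiltered (0.132).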

How the data were processed

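Estimated counts per gene, rounded to whole numbers and not normalised, were deposited by the authors, along with a CPM table of 21637 genes. Per the submitters' processing notes, tools included Trim Galore 0.6.10, HISAT2 2.2.1, SAMtools 1.6 and featureCounts 2.0.6. The sources used here do not give the build used for counting, the use of strand or the handling of unique molecular identifiers. Positions are GENCODE M21 positions on GRCm38.

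The test was edgeR 4.0.16 (R 4.3.3): filterByExpr, TMM scaling, and 1 robust quasi-likelihood model over 36 libraries in 4 groups. Alternatives used DESeq2 1.42.0, limma 3.58.1 on log2 of the deposited CPM plus 1 or 0.1, other scalings, covariates and each library left out. SE is the fold change over the root of F. The 10 genes and all lists were chosen with earlier results of these data known. Members, and list genes called in a genotype comparison (at most 8 per list), were named, as were Srebf2, Insig1, Scap, Nr1h2, Elovl5 and Me1; Mecr and Hsd17b8 were added after their values were seen. Among 146 pairs of libraries within groups, 0 were identical.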

Additional observations from a re-analysis of the deposited data

Results flagged for a closer look

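In each group the highest and lowest library of each of the 10 genes was compared with its neighbor by Dixon's criterion, which flags about 1 in 20 groups by chance. Of 40 combinations of gene and group, 6 were flagged, each for a highest library. WT-Veh-2 stood apart for Acly (70.1 CPM, next library 46.7), Acss2 (40.4 CPM, next 26.7) and Elovl6 (98.7 CPM, next 66.6). WT-aKG-8 stood apart for Acss2 (35.99 CPM, next 26.2) and Scd2 (1207 CPM, next 897). KO-Veh-7 stood apart for Scd1 (219 CPM, next 148). Each of these 3 libraries was also the highest of its group in the oligodendrocyte and myelin score (8.21, 8.06 and 7.14), and the part of those cells in the 6 values was not tested.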

How the results depend on the processing

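All 10 genes kept a value below 0 under vehicle in 13 other settings and in 36 fits that left out 1 library each. The count of genes called lower under vehicle, 3, became 0 on library totals and in the unfiltered CPM table, 1 in the CPM table with either pseudocount and in a fit of the 2 groups alone, and 6 with 5 tissue scores. Without 1 library it ran from 1 (without WT-Veh-2 or KO-Veh-10) to 6 (without KO-Veh-7). Over all genes the vehicle comparison called 701 in the main fit and 1296 with 5 tissue scores. The fit lacking KO-Veh-7 called 1662 of all genes, the fit lacking WT-Veh-2 called 499 and the fit lacking KO-Veh-10 called 440. CPM plus 1 gave 142 higher and 23 lower. In these fits the member count moved in the same direction as the count over all genes. Under dm-αKG the count of 0 became 2 with the myelin score, 3 with 5 tissue scores and 1 without the cerebellum-high libraries. All genes called there went from 304 to 594, 415 and 599 in the same order. In the average the count of 5 became 1 on library totals and in each fit of the CPM table, and 8 with 5 tissue scores. Without 1 library it ran from 3 (without KO-aKG-1 or KO-aKG-2) to 6. All genes called in the average numbered 1930 in the main fit and 2334 with 5 tissue scores. They numbered 1568 without KO-aKG-1 and 1502 without KO-aKG-2. With CPM plus 1 there were 843 higher and 109 lower. The causes were not tested. The treatment effects and the interaction gave 0 calls in every setting run. On library totals the split of all called genes into higher and lower was 227 and 29 under vehicle (422 and 279 with TMM), 290 and 10 under dm-αKG (182 and 122) and 1274 and 155 in the average (927 and 1003), and the median of all genes shifted by 0.16, 0.13 and 0.16 for the dm-αKG genotype effect, the knockout treatment effect and the interaction. Of 48 pairs of libraries with the same replicate number 26 had a correlation of their deviations above 0.1 (-0.749 to 0.872, median 0.155). Pairs with unlike numbers were not computed, so whether the numbers pair the libraries was not tested. With a replicate block 2 of the 10 genes were called under vehicle (623 of all genes), 0 under dm-αKG (325 of all genes) and 5 in the average. In the average the main fit also called 5, beside 1930 of all genes. The count over all genes with the block is not given here for the average. The values whose sign turned were none of the calls. In the genotype effect under dm-αKG, signs turned with library totals (Acly 0.10), CPM plus 1 (Acaca 0.034, Acly 0.092), CPM plus 0.1 (Acaca 0.039, Acly 0.094), CPM unfiltered (Acaca 0.034, Acly 0.092) and no cerebellum-high libraries (Acaca 0.000498, Acly 0.22, Elovl6 0.18). In the treatment effect in wild types, signs turned with 5 tissue scores (Acss2 -0.028, Scd2 -0.0067) and no cerebellum-high libraries (Acss2 -0.10, Scd1 -0.13, Scd2 -0.14, Elovl6 -0.25). In the treatment effect in knockouts, signs turned with library totals (Fads1 0.14), CPM plus 1 (Fads1 0.12), CPM plus 0.1 (Fads1 0.12), CPM unfiltered (Fads1 0.12), replicate block (Fasn -0.0089, Acss2 -0.0022), the myelin score (Fasn -0.054, Acaca -0.058, Acss2 -0.17, Scd1 -0.22, Fads1 0.054), 5 tissue scores (Fasn -0.12, Acaca -0.062, Acly -0.0024, Acss2 -0.16, Scd1 -0.19, Fads1 0.029) and the sex covariate (Fasn -0.0018, Fads1 0.0042). In the interaction, signs turned with replicate block (Acss2 -0.019), the myelin score (Acss2 -0.20, Scd1 -0.22) and 5 tissue scores (Acss2 -0.13, Scd1 -0.20). In the average genotype effect, signs turned with library totals (Srebf1 0.076), CPM plus 1 (Srebf1 0.042), CPM plus 0.1 (Srebf1 0.041) and CPM unfiltered (Srebf1 0.042). Without 1 library, the genotype effect under dm-αKG ran from -0.22 to 0.076 for Acly. Without 1 library, the treatment effect in wild types ran from -0.15 to 0.12 for Acly, from -0.055 to 0.17 for Acss2, from -0.0596 to 0.15 for Scd1, from -0.049 to 0.15 for Scd2, from -0.036 to 0.21 for Elovl6. Without 1 library, the treatment effect in knockouts ran from -0.0595 to 0.054 for Fasn, from -0.033 to 0.11 for Acss2, from -0.096 to 0.026 for Fads1. Without 1 library, the interaction ran from -0.12 to 0.11 for Acss2, from -0.045 to 0.17 for Scd1, from -0.00035 to 0.19 for Fads2. Without 1 library, the average genotype effect ran from -0.081 to 0.011 for Srebf1.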
